A study of Homo sapiens with 16 samples.

Results

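Open chromatin in U87 cells given AsiDNA and belinostat together was compared with open chromatin in U87 cells given vehicle, using the peak lists of 8 of the 16 libraries in the series. The combination list (treatment field Asi_Bel, 4 libraries) held 134865 peaks and the vehicle list (Control_DMSO, 4 libraries) held 130318 peaks on chromosomes 1 to 22 and X. Merged, these peaks made 157946 of the 183659 regions found in any of the 4 lists of the series. A combination peak was called gained if no vehicle peak overlapped it by at least 1 bp, and a vehicle peak was called lost if no combination peak overlapped it by at least 1 bp.

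U87 is an established human glioblastoma line. The treatment protocol gives belinostat at 1 µM for 24 h, and no AsiDNA dose or time is stated. The sample fields name U87, whereas the protocols speak of MTU87 and LTAU87 cells, and which line each library came from was not settled here. The 2 single-agent groups of the series (belinostat alone, Control_Bel, 4 libraries; AsiDNA alone, Asi_DMSO, 4 libraries) were read only at the places named below. Each group had 1 pooled peak list, so no replicate spread, standard deviation or test across samples was available for any value, and the read depth behind the lists is unknown.

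AsiDNA is a short DNA molecule that imitates a broken DNA end, and it is known to draw repair proteins such as DNA-PK and PARP away from the breaks of the chromosomes. Belinostat is a hydroxamate that blocks histone deacetylases, the enzymes that remove acetyl groups from histone tails; acetylated histones are typical of open chromatin. NicE-seq labels open chromatin in fixed nuclei with the nicking enzyme Nt.CviPII, which cuts 1 strand at CCA, CCG or CCT where the DNA is not covered, so that DNA polymerase I can add biotin from the nick.

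The promoters below belong to genes whose start lay in a peak found in 1 of the 2 lists, and they are printed because the peak, gained or lost as a whole, covered most of the window of 250 bases before to 50 after the start; the AKR1C3 peak ended before the start itself. ETDA and APBB1IP had a combination peak and no vehicle peak, and SLAMF1, RSAD2 and AKR1C3 had a vehicle peak and no combination peak. The 250 bases before each start are given on the gene's strand (RefSeq, GRCh38.p14), and capitals mark every Nt.CviPII site (CCA, CCG or CCT) of either strand.
ETDA promoter, chrX:135251811-135252060, plus strand: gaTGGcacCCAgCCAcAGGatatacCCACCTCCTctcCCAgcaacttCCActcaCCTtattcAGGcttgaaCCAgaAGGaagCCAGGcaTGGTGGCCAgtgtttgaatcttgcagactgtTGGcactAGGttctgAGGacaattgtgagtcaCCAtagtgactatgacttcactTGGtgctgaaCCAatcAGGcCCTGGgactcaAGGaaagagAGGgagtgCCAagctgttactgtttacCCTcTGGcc
APBB1IP promoter, chr10:26438091-26438340, plus strand: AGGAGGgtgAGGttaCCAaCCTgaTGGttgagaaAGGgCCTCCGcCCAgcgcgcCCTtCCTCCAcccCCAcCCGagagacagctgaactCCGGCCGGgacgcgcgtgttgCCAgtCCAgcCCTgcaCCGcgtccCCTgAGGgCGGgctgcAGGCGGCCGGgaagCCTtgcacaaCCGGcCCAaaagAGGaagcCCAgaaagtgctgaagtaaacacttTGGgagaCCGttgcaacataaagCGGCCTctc
SLAMF1 promoter, chr1:160647045-160647294, minus strand: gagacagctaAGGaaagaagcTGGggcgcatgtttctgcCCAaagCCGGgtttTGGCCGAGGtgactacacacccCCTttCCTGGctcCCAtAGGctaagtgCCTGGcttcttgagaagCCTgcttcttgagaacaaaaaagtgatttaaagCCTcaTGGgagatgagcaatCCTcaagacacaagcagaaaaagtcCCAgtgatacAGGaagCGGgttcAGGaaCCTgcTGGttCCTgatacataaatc
RSAD2 promoter, chr2:6865635-6865884, plus strand: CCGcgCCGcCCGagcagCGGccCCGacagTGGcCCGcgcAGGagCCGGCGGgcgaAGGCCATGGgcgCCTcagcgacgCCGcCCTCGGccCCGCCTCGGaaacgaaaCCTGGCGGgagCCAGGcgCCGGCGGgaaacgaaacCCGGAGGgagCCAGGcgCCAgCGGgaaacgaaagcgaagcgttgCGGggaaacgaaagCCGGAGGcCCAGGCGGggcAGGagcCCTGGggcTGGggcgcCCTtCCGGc
AKR1C3 promoter, chr10:5048531-5048780, plus strand: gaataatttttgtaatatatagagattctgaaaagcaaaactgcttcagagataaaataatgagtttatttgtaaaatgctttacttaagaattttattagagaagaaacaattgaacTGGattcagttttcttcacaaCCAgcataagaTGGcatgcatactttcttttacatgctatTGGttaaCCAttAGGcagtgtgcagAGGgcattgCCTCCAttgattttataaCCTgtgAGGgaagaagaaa
The 250 bases before the RSAD2 start held 50 nicking sites and 76.4% G or C, and those before the AKR1C3 start held 11 sites and 32.0% G or C. ETDA, APBB1IP and SLAMF1 lay between them, with 32, 40 and 26 sites. The ETDA promoter, on the X chromosome, also contained the AP-1 motif TGAGTCA and no CpG.

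Short RNAs were the other members with sequences given. The mature miRNAs below come from hairpins that overlapped a peak gained or lost as a whole (RefSeq, GRCh38.p14). Capitals mark the seed, bases 2 to 8, which pairs with target transcripts. MIR1179 lay in a gained peak, and MIR9-2 and MIR197 lay in lost peaks. MIR591 overlapped a gained peak that ended inside its hairpin.
miR-591: aGACCAUGgguucucauugu
miR-1179: aAGCAUUCuuucauugguugg
miR-9-5p: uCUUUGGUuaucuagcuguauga
miR-9-3p: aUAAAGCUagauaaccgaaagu
miR-197-3p: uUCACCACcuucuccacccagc
The 20 mature miRNAs listed for such hairpins had 20 different seeds, so none formed a seed family.

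The labelled cell type was checked at marker genes. The starts of VIM, an intermediate filament gene of mesenchymal and glial cells, of CD44, of NES and of SOX2 were open in both lists. No start was available for the glial genes GFAP, OLIG2 and S100B. They held 7, 2 and 2 combination peaks and 7, 2 and 4 vehicle peaks. CDKN2A, CDKN2B and MTAP, which are deleted in U87, and ALB, the albumin gene of liver, held 0 peaks in all 4 lists. Genes of other cells were not free of peaks: PTPRC, the leukocyte gene for CD45, held 6 combination and 7 vehicle peaks, and CDH5, of endothelium, held 12 and 8. RBFOX3, of neurons, held 24 and 24, and its start was open in the vehicle list. VIM held 5 and 4, so peak counts alone did not separate glioma genes from those of other cells.

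The combination list had 28670 gained peaks, 21.3% of its peaks (Wilson 95% interval 21.0 to 21.5, counting error only). The vehicle list had 24290 lost peaks, 18.6% (18.4 to 18.9). Gained peaks covered 8.62 Mb of the 63.3 Mb in the combination list, and lost peaks covered 7.05 Mb of the 62.4 Mb in the vehicle list. Gained peaks outnumbered lost peaks by 1.18 to 1, but with both lists at equal length, taken by −log10 p, the ratio was 0.996. The lists held similar numbers of shared peaks (106195 combination and 106028 vehicle peaks). Cutting the lists to equal length therefore brings the ratio near 1 by construction, and it cannot decide the direction of the excess. Under the other settings tried the ratio ran from 1.16 to 1.44. The excess follows the lengths of the lists, whose read depth is unknown.

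Gained and lost peaks were mostly narrow and weak for their list. Their median widths were 267 bp and 253 bp, against 448 bp for combination peaks and 443 bp for vehicle peaks that were shared. Strength is given here as the percentile of a peak's fold enrichment, the authors' value, within its own list, because fold enrichment was not scaled between lists. The median percentile was 19.7 for gained and 18.3 for lost peaks. With each list cut into 10 equal parts by strength, 58.3% of combination peaks were gained and 53.3% of vehicle peaks were lost in the weakest part. In the strongest part these shares were 0.0667% (9 peaks) and 0.268% (35 peaks).

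**Figure D1:**
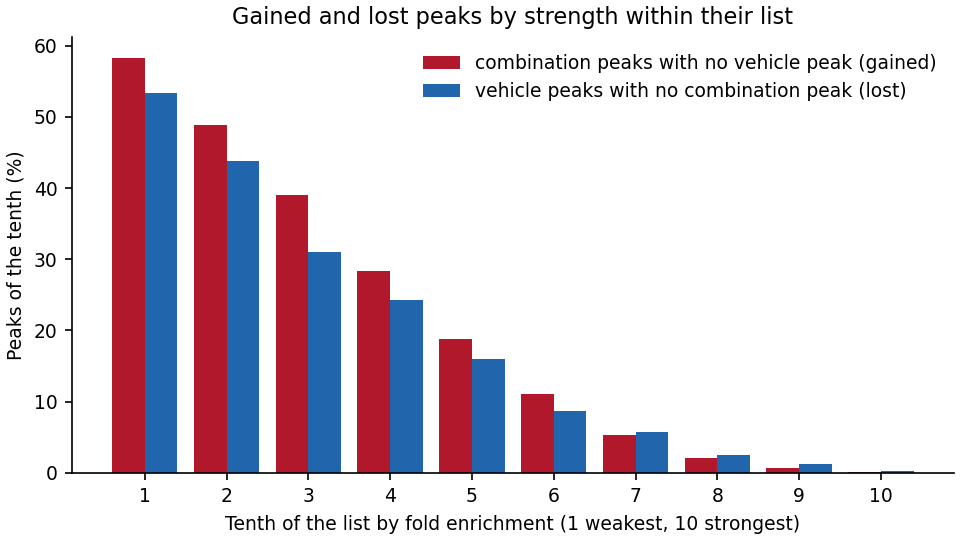
Share of peaks (%, vertical axis) that were gained (red, combination list) or lost (blue, vehicle list) in 10 parts of their own list, ordered by fold enrichment from weakest (1) to strongest (10) (horizontal axis). Gained shares run from 58.3% to 0.0667% and lost shares from 53.3% to 0.268%, so calls in either direction were concentrated among weak peaks.

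Most calls did not come from peaks that narrowly missed each other. The median distance from a gained peak to the nearest vehicle peak was 4.61 kb, and from a lost peak to the nearest combination peak 5.03 kb. Only 59 gained and 51 lost peaks lay under 50 bp from a peak of the other list. Isolated calls were a larger share of the lost peaks: 1113 lost peaks (4.58%) and 720 gained peaks (2.51%) lay over 50 kb from any peak of the other list.

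Of the 10 strongest gained peaks, 6 lay inside protein-coding genes. Percentiles of the peaks at the same places in the single-agent lists are set beside them; these comparisons share the vehicle list, and no likeness between them was tested. The strongest gained peak, 202 bp wide at chr1:76971215-76971416, lay inside ST6GALNAC5, a sialyltransferase gene of ganglioside synthesis; its percentile was 99.98 in the combination, 99.99 in the belinostat and 97.9 in the AsiDNA list. PCBD2, a dehydratase that regenerates a pterin cofactor, held a 201 bp gained peak at percentile 99.96, with 99.93 in the belinostat list and no AsiDNA peak. A 229 bp gained peak, 717 kb from KIF2B, a mitotic kinesin gene, had percentile 99.6 (belinostat 99.9, AsiDNA none). These 3 were narrower than the median gained peak, unlike the 7 that followed, which were 347 to 579 bp wide. Their −log10 q values were 171, 375 and 89.4, against 46.8 to 76.8 for the 7. Whether reads that can be placed at several positions contributed to these narrow, high peaks was not tested.

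SGCB, which encodes a sarcoglycan of the muscle membrane complex, held a gained peak at percentile 95.6, against 73.4 in the belinostat list. SPICE1, a centriole gene, had percentiles 92.3 and 94.4 in the same order, and SPATA21 had 92.0 and 94.7. MND1, whose product works in meiotic recombination, held a peak at percentile 90.7 in the combination, 91.5 in the belinostat and 52.1 in the AsiDNA list. The last 3 lay outside genes: 147 kb from OXR1, an oxidation resistance gene, 30.5 kb from FAS, the death receptor gene, and 133 kb from MID1IP1, at percentiles 90.7, 90.1 and 89.5. Outside these 10, the next gained peak had percentile 88.8.

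Of the 10 strongest lost peaks, 4 lay inside protein-coding genes, and all 10 had a percentile above 93.2. The strongest, at chr7:77738842-77739299 inside RSBN1L, had percentile 97.9 in the vehicle list and 91.6 in the AsiDNA list, with no combination or belinostat peak. PAPSS2, which makes the sulfate donor for proteoglycans, held a lost peak at percentile 95.3 (AsiDNA 95.3, belinostat none). ENAH, an actin regulator of the Ena/VASP family, held one at 93.8, with 85.2 in the AsiDNA and 27.8 in the belinostat list. ADCY9, an adenylyl cyclase gene, had 93.7 in the vehicle and 89.6 in the AsiDNA list.

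The other 6 lost peaks lay outside protein-coding genes. A lost peak 202 kb from IL7, a cytokine gene, had percentile 94.9 in the vehicle and 97.8 in the AsiDNA list. A lost peak 13.6 kb from EED, a core subunit gene of Polycomb repressive complex 2, had 93.7 and 87.9. A lost peak 51.3 kb from PRRX1, a homeobox gene of mesenchymal cells, was 898 bp wide and had 93.3 in the vehicle, 92.8 in the AsiDNA and 27.8 in the belinostat list. The peaks nearest NEGR1, a neuronal adhesion gene, and NR5A2, a nuclear receptor gene, had no belinostat peak. The peak nearest WSB1, 2051 kb away, had percentile 60.2 there. The next lost peak after these 10 had percentile 93.2.

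Shared peaks kept their width at the median, with wide spread around it. Ranks are percentiles within each list, so their median shift cannot show a change of signal common to all peaks. The 102803 pairs in which 1 peak of each list overlapped only the other had a median width ratio, combination over vehicle, of 0.998, with 0.612 and 1.69 at the 5th and 95th percentiles of pairs. The median shift in rank was 1.25 percentile points towards the combination, with −30.8 and 31.5 at the same limits; with lists of equal length the median shift was 0.417 points. Summits lay within 50 bp of each other in 70.5% of pairs. A combination peak at least 2-fold wider than its vehicle partner was seen in 2.27% of pairs (2333), and one at least 2-fold narrower in 1.91% (1964). Rises of 30 points or more made 5.77% of pairs (5932) and falls of that size 5.33% (5475).

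Pairs that were wider in the combination mostly ranked higher there. The 2-fold wider pairs had medians of 606 bp in the combination and 240 bp in the vehicle list, a median rank shift of 14.2 points, and a higher rank in the combination in 75.7%. The 2-fold narrower pairs had medians of 258 bp and 649 bp and a median shift of −13.6 points. Across all pairs Spearman's rho between width ratio and rank shift was 0.34; all pairs come from the same 2 peak lists, and no test was made. With pairs cut into 5 equal parts by strength, the median width ratio of the strongest part was 0.973 (0.685 to 1.30 from the 5th to the 95th percentile), and that of the weakest part was 1.02 (0.528 to 1.96).

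**Figure D2:**
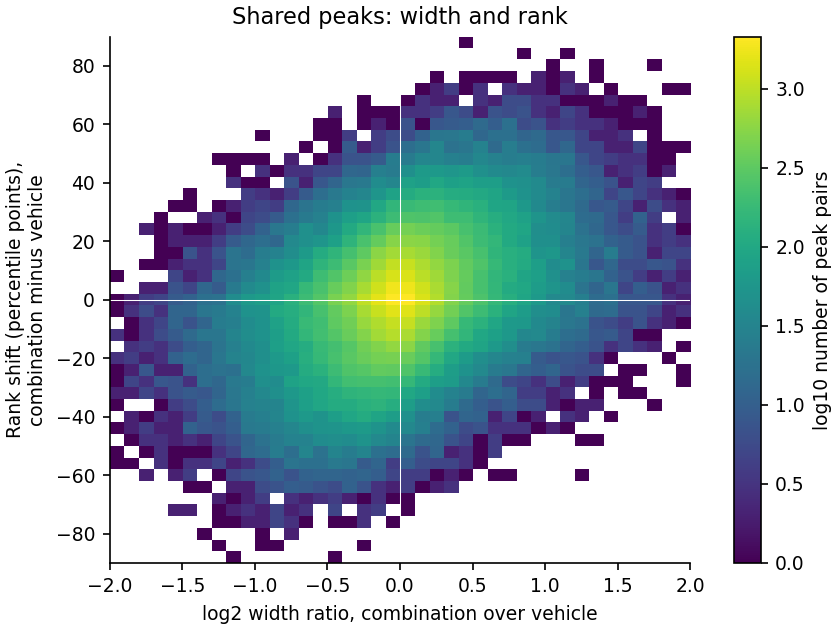
Pairs of shared peaks by log2 width ratio (horizontal axis, combination over vehicle) and by rank shift in percentile points (vertical axis, combination minus vehicle), with colour for log10 of the number of pairs per cell; 102706 of the 102803 pairs fall inside the axes. The densest cells lie at 0 on both axes, and wider pairs lie towards higher rank.

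ANXA6, which encodes a calcium-dependent membrane-binding annexin, held the largest rise. Its peak at chr5:151104674-151105345 had percentile 93.2 in the combination and 5.43 in the vehicle list, and it had 94.9 in the belinostat and 41.0 in the AsiDNA list. The peak in MLF1 had 89.1 in the combination against 6.43 in the vehicle list, that in NBEAL1 96.2 against 14.1, and that in POLA1, the catalytic subunit gene of DNA polymerase alpha, 90.1 against 10.0. Over these 4 genes the percentiles ran from 74.7 to 98.5 in the belinostat list and from 16.9 to 41.0 in the AsiDNA list.

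The largest fall was at a peak 30.6 kb from ABTB3, with percentile 7.25 in the combination and 98.5 in the vehicle list, beside 24.1 in the belinostat and 97.8 in the AsiDNA list. CFAP100, a ciliary gene, and CHCHD6, which encodes a protein of mitochondrial cristae, lie on chromosome 3. Their peaks had percentiles 4.45 and 6.01 in the combination, 93.1 and 92.4 in the vehicle and 90.3 and 89.3 in the AsiDNA list, with no belinostat peak at either. Peaks 68.3 kb from HNF4G and 341 kb from EBF1, a B-cell transcription factor gene, had 7.25 and 2.22 in the combination against 91.2 and 84.9 in the vehicle list.

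The largest width ratio was near CMBL, where a 1005 bp combination peak faced a 194 bp vehicle peak (ratio 5.18). Near DHRS3, a retinal reductase gene, the widths were 1012 bp and 201 bp, and inside IGSF9B, a synaptic adhesion gene, they were 1091 bp and 219 bp. The next largest ratio lay on chromosome 1, 1838 kb from the nearest protein-coding gene (1174 bp and 238 bp). It was followed by one on chromosome 9, 188 kb from SPATA31A6 (1417 bp and 292 bp). Of the 5 smallest ratios, 4 lay on chromosomes 9 and 15, 3 of them over 1 Mb from the nearest protein-coding gene, the smallest with 246 bp in the combination and 2258 bp in the vehicle list (ratio 0.109). The remaining one lay 100 kb from FBXO28, with 206 bp and 1393 bp.

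Gained peaks were found in the span plus 10 kb of 9958 of 19970 protein-coding genes (49.9%), and lost peaks in 8218 (41.2%). Both kinds were present at 5171 genes and neither at 6965. Long genes held most: genes over 300 kb averaged 4.35 gained and 4.49 lost peaks, and genes under 10 kb averaged 0.390 and 0.249. The genes with most gained peaks were KAZN (25 gained, 13 lost), a gene of cell junctions and the cytoskeleton, CDH13 (23 and 16), the T-cadherin gene, and PRKG1 (23 and 36), the gene of cGMP-dependent protein kinase. They were followed by TMEM178B (20 and 9), NAV2 (20 and 8), SYN3 (19 and 3), the transcription factor gene GLIS3 (18 and 11), the calcium pump gene ATP2B2 (17 and 6), GPHN (17 and 4) and CAMTA1 (17 and 8).

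PRKG1 and CDH13 also stood among the 10 genes with most lost peaks. The others were NRG1 (8 gained, 21 lost), the phosphodiesterase gene PDE4D (11 and 20), the exocyst gene EXOC4 (7 and 17), the teneurin gene TENM2 (15 and 17), LRP1B (6 and 16), ZFHX3 (9 and 16), CADPS2 (6 and 15) and PCDH9 (2 and 15). These 18 genes were 384 to 1900 kb long, so the counts are best read against the mean over gene spans, 1.15 gained and 0.918 lost peaks per 100 kb.

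The 8 genes with the largest excess of gained over lost peaks were SYN3, TNS3, GPHN, DPP6, SRGAP2, RARB, NAV1 and NAV2. SYN3, the synapsin III gene, held 49 vehicle and 65 combination peaks, 19 gained and 3 lost; TIMP3 and FBXO7 overlap its span plus 10 kb. TNS3, the tensin 3 gene, whose product links integrins to actin, held 23 vehicle and 37 combination peaks, 15 gained and 0 lost, or 4.58 gained per 100 kb. GPHN, which encodes gephyrin, the anchor of inhibitory receptors at synapses, held 17 gained and 4 lost peaks over a span with 14 other genes. DPP6, an accessory subunit gene of potassium channels, had 16 and 4.

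SRGAP2, a Slit-Robo GTPase activating protein gene, had 13 gained and 1 lost; it has partial copies in the genome, and reads could be split between them. RARB, the retinoic acid receptor beta gene, had 14 and 2, and the neuron navigator genes NAV1 and NAV2 had 16 and 4, and 20 and 8. The 15 gained TNS3 peaks ran from 1.32 kb before the start to 245 kb into the gene, with percentiles from 0.300 to 53.6 and a median of 21.4. None of the 8 genes therefore rested on strong peaks: the highest gained percentile among them was 61.0, in SRGAP2.

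The 8 genes with the largest excess of lost peaks were all over 270 kb long. PCDH9, a protocadherin gene, held 42 vehicle and 30 combination peaks, with 2 gained and 15 lost. NRG1, the neuregulin ligand of ERBB receptors, held 81 and 70, with 8 gained and 21 lost, and PRKG1 held 119 and 108. GALNTL6, a glycosyltransferase-like gene, and ANK2, the ankyrin-B gene, had 1 gained and 12 lost each. The strongest lost peak of GALNTL6, at chr4:172578787-172579067, had percentile 93.1, and that of ANK2 had 80.5.

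CAMK1D, a calcium-dependent kinase gene, and RORA, a nuclear receptor gene, each had 4 gained and 15 lost peaks. PHACTR3, a phosphatase and actin regulator gene, held 16 vehicle and 6 combination peaks, with 0 gained and 10 lost, none above percentile 31.5. In both directions the sign of gained minus lost held for all 16 genes under 10 other settings. The genes were picked for extreme counts in the same lists that these settings cut again, so the kept sign is not independent support. PHACTR3 came down to −3 with stricter peaks and PRKG1 ranged from −24 to −5.

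**Figure D3:**
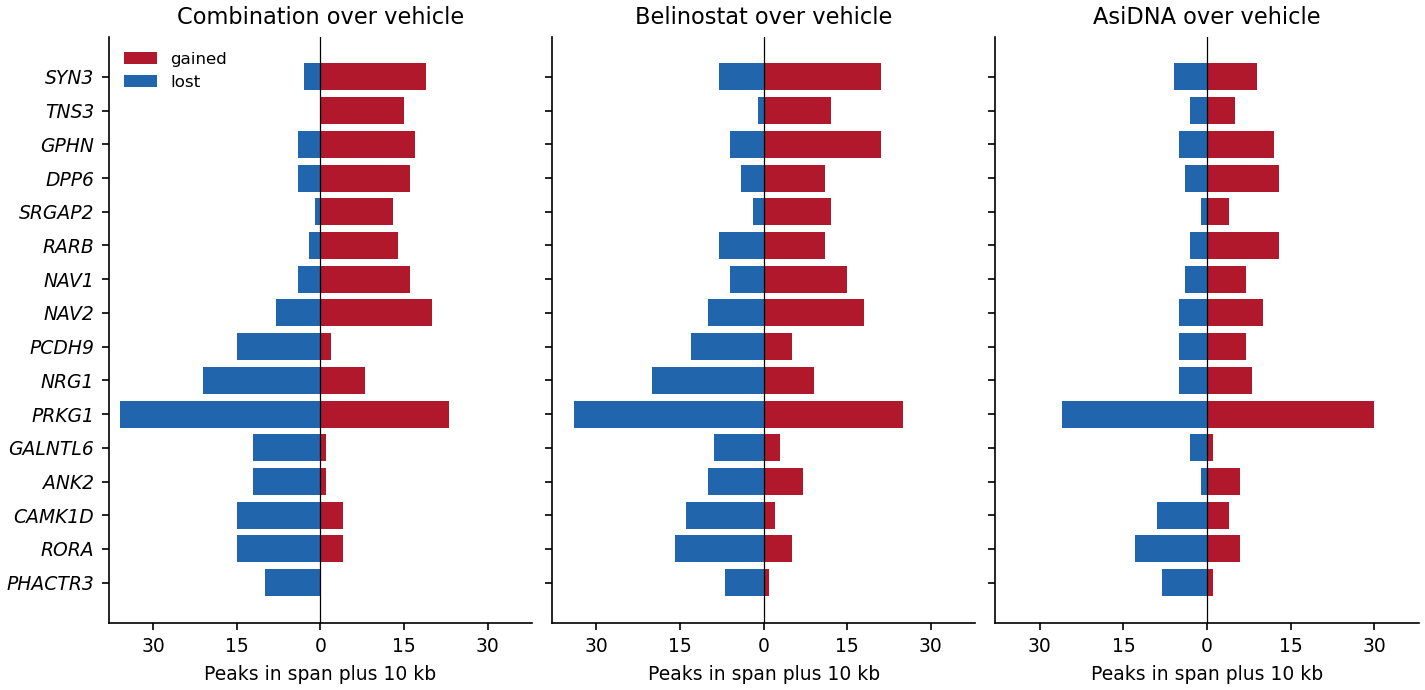
Number of gained (red, right of 0) and lost (blue, left of 0) peaks in the span plus 10 kb of the 16 genes with the largest excess either way, for the combination, belinostat and AsiDNA lists against the same vehicle list. TNS3 had 15 gained and 0 lost peaks in the combination, and ANK2 had 1 and 12.

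The same genes were counted in the single-agent lists, all 3 comparisons sharing the vehicle list. TNS3 had 12 gained and 1 lost peaks with belinostat and 5 and 3 with AsiDNA. SRGAP2 had 12 and 2 with belinostat and 4 and 1 with AsiDNA, and SYN3 had 21 and 8, and 9 and 6. NRG1 had 9 gained and 20 lost with belinostat, but 8 and 5 with AsiDNA.

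RARB had 11 gained and 8 lost with belinostat and 13 and 3 with AsiDNA, beside 14 and 2 in the combination. ANK2 had 7 gained and 10 lost with belinostat and 6 and 1 with AsiDNA, beside 1 and 12 in the combination. PHACTR3 had 1 and 7, and 1 and 8. PRKG1 had 25 gained and 34 lost with belinostat, and 30 and 26 with AsiDNA.

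**Figure D4:**
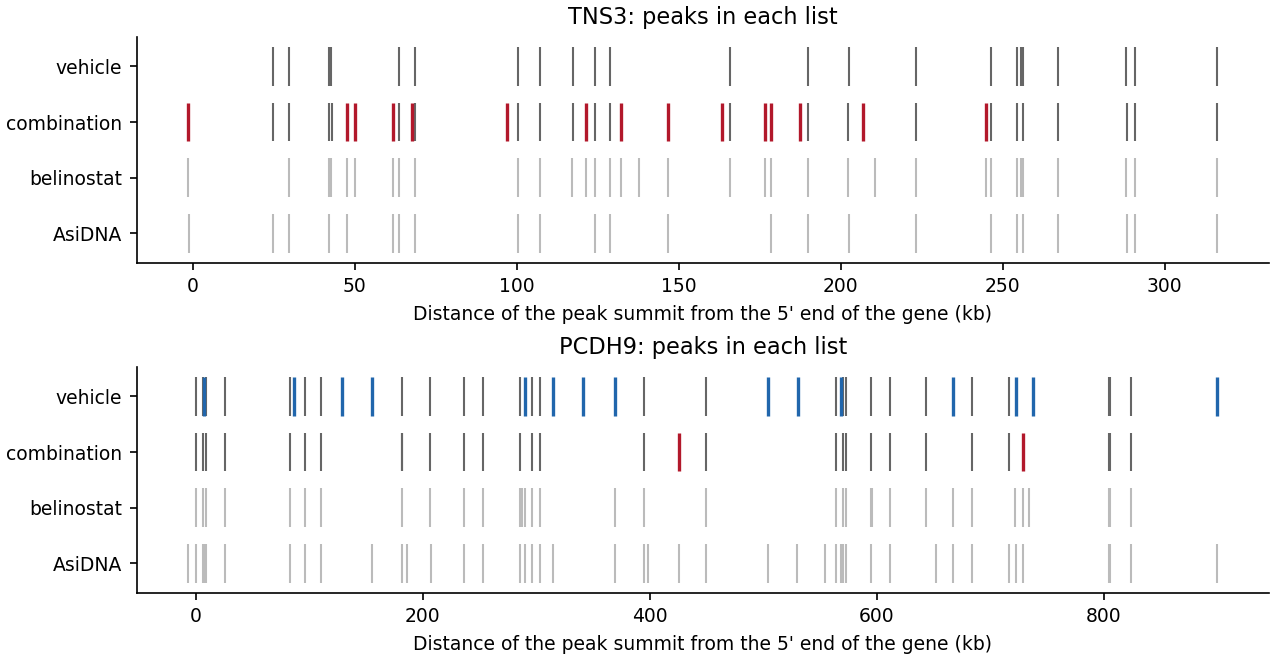
Peak summits in each list along TNS3 and PCDH9, as distance in kb from the 5' end of the gene. Red marks are combination peaks with no vehicle peak, blue marks are vehicle peaks with no combination peak, dark grey marks are peaks shared by those lists, and light grey marks are all belinostat or AsiDNA peaks; the 15 gained peaks of TNS3 and the 15 lost peaks of PCDH9 are spread over the genes rather than gathered in 1 block.

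Calls were few at gene starts, whose windows are far shorter than gene spans, so the 2 shares cannot be compared. Of 15811 protein-coding gene starts (250 bases before to 50 after), 9494 were open (touched by a peak) in the combination and 9497 in the vehicle list. Of all starts, 1.66% (262) were gained and 1.68% (265) lost, while 6052 were open in neither list. With a peak summit required in the window, 1204 starts were gained and 585 lost, so the balance depended on the rule for overlap. Of the 262 gained and 265 lost starts, 70 and 86 were touched by a peak that was itself shared, so only its border differed. The strongest 8 of each kind were all such cases, among them POGLUT3, WDR87, ASMTL and TACC3 (gained) and KRTAP4-7, XCR1, MOB4 and ORC4 (lost). They are therefore not described as opened or closed starts.

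The strongest starts in peaks gained as a whole were named after this was seen. GOLGA6C, of a gene family with near-identical copies, had percentile 69.3 in the combination and 88.9 in the belinostat list. ETDA had 65.0 in the combination, 56.1 in the belinostat and 29.0 in the AsiDNA list, and its near copy ETDB had 55.7 and 53.9 with no AsiDNA peak. APBB1IP, an adaptor gene between Ras-family GTPases and actin, had 59.2 in the combination and 50.4 in the belinostat list, with no AsiDNA peak. SLC25A18, a mitochondrial glutamate carrier gene, had 52.1 in the combination and 22.0 in the AsiDNA list, with no belinostat peak. LMTK3 and ZNF556, both on chromosome 19, had 50.3 and 47.4, and 47.9 and 50.7 in the belinostat list.

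The strongest starts in peaks lost as a whole were also named after their values were seen. IFI44, an interferon-induced gene, had percentile 64.0 in the vehicle, 67.4 in the belinostat and 78.4 in the AsiDNA list, and no peak at its start in the combination. RSAD2, which encodes the antiviral enzyme viperin, had 60.9 in the vehicle and 25.1 in the AsiDNA list and no peak in the others. SLAMF1, a leukocyte receptor gene, had 62.9 in the vehicle and 49.3 in the AsiDNA list. ADGRB3, an adhesion receptor gene of neurons, was open in both single-agent lists (34.7 and 40.0) at percentile 54.9 in the vehicle.

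AKR1C3, a steroid-reducing enzyme gene, had 52.7 in the vehicle and 19.5 in the AsiDNA list. NAP1L2, a histone chaperone gene, had 48.8 in the vehicle and 16.4 in the belinostat list. LIFR, the leukaemia inhibitory factor receptor gene, had 48.1 in the vehicle, 9.40 in the belinostat and 55.9 in the AsiDNA list. CLDN15, a tight junction gene, had 45.6 in the vehicle and 54.8 in the AsiDNA list.

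In CpG and nicking sites, gained and lost starts lay between starts open in both lists and starts open in neither. Median CpG counts in the 300-base window were 10 at gained, 17 at lost, 27 at starts open in both and 7 at starts open in neither. Medians of nicking sites were 43 at gained and 41 at lost starts, against 45 and 37. The AP-1 motif (TGACTCA or TGAGTCA, either strand) was present at 7.25% of gained starts (19; 4.69 to 11.0), 4.15% of lost starts (11; 2.33 to 7.28) and 3.67% of all 15811. The ETS motif CCGGAAGT was present at 1.15% of gained and 0.377% of lost starts, against 10.0% of starts open in both and 6.19% of all. The GC box GGGCGG was present at 51.1% and 50.9%, against 58.5% of all.

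**Figure D5:**
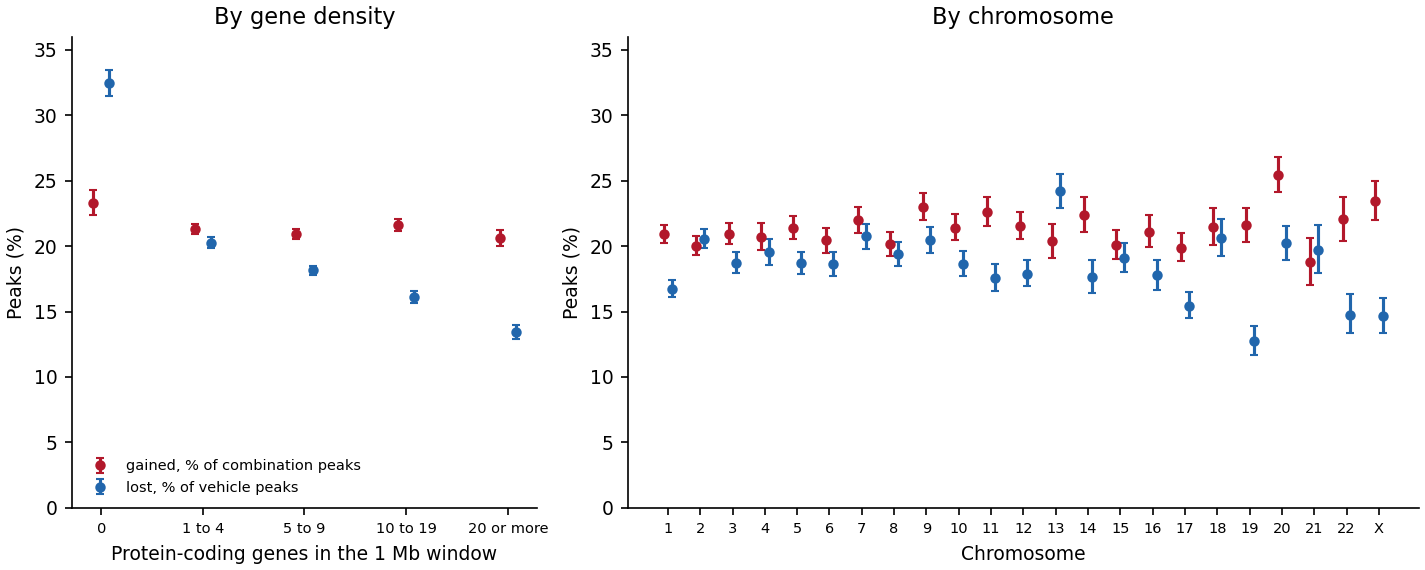
Gained peaks as a share of combination peaks (red) and lost peaks as a share of vehicle peaks (blue), in %, by the number of protein-coding genes in the 1 Mb window (left) and by chromosome (right); bars are Wilson 95% intervals for counting error. Lost shares run from 32.4% in windows without genes to 13.4% in windows with 20 or more, and from 24.2% on chromosome 13 to 12.7% on chromosome 19.

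Where genes were dense, fewer vehicle peaks were lost. In 1 Mb windows with 0 protein-coding genes, 32.4% of vehicle peaks were lost (2669; 31.4 to 33.5), and in windows with 20 or more, 13.4% (2167; 12.9 to 14.0). The gained share varied less, from 23.3% to 20.6%. Gained over lost was 0.636, 1.07, 1.19, 1.44 and 1.67 in windows of 0, 1 to 4, 5 to 9, 10 to 19 and 20 or more genes. With lists of equal length these ratios were 0.444, 0.921, 1.02, 1.22 and 1.43, so their order held.

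Chromosome 19, dense in genes, had 843 gained and 448 lost peaks (1.88), the X chromosome 731 and 411 (1.78) and chromosome 22 522 and 320 (1.63). Chromosome 13 had 779 gained and 967 lost (0.806), and chromosomes 2 (0.971) and 21 (0.946) were also below 1. With lists of equal length the ratio was 1.63 on chromosome 19, 1.57 on X and 0.658 on 13. By distance, gained peaks lay a median of 29.7 kb from the nearest end of a protein-coding gene, lost peaks 41.0 kb and shared combination peaks 25.8 kb. Within 1 kb lay 3.74% of gained, 4.54% of lost and 11.97% of shared combination peaks.

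The windows with the largest excess of lost peaks held no genes. In 19 of the 2829 windows lost peaks exceeded gained peaks by at least 20, and all 19 held 0 protein-coding genes. On 10 chromosomes, they held 1071 lost of 2746 vehicle peaks and 470 gained of 2151 combination peaks. Over all windows 18.6% of vehicle peaks were lost and 21.3% of combination peaks gained. The largest difference was at chr13:17000001-18000000, with 107 lost and 47 gained peaks, followed by chr2:92000001-93000000, with 87 and 30. Such windows lie beside or in centromeres, where the assembly holds repeated satellite sequence and reads can be placed at several positions; how such reads were treated is not given in the sources used here. In chr13:17000001-18000000 the vehicle list held 280 peaks, the combination 221, belinostat 217 and AsiDNA 262. The median window held 45 vehicle peaks, and windows with many peaks reach a difference of 20 more easily. Without the 340 windows that held no gene, there were 26972 gained and 21621 lost peaks (1.25).

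The windows with the largest excess of gained peaks differed in gene number. At chr5:141000001-142000000, which holds 49 genes, the protocadherin gamma genes of neuronal cell recognition among them, 35 peaks were gained and 6 lost (belinostat 33 and 9, AsiDNA 16 and 4). At chr7:47000001-48000000, with 3 genes, among them TNS3 and PKD1L1, 31 were gained and 2 lost. At chr12:52000001-53000000, with type II keratin genes, 39 were gained and 11 lost, and KRT85 alone held 4 gained and 0 lost. At chr22:39000001-40000000, with MGAT3 (5 and 0), CACNA1I (5 and 1) and the growth factor gene PDGFB (4 and 0), 32 were gained and 4 lost. In all, 22 of the 2829 windows had at least 20 more gained than lost peaks (686 and 164), and they held 450 genes.

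Genes of DNA repair were read because AsiDNA imitates a DNA break. Of 14 genes of single-strand break repair and PARP activity, 7 had a gained (50.0%) and 2 a lost peak (14.3%), against 49.9% and 41.2% of all genes, with 15 gained and 2 lost peaks in all. The share with a gained peak was thus that of all genes. PARG, which removes poly(ADP-ribose), had 5 gained and 0 lost, LIG3, a DNA ligase gene, 3 and 0, and POLB, the base excision polymerase gene, 2 and 0. LIG3 had no gained peak with either single agent, and PARG had 4 with belinostat and 5 with AsiDNA. The list ranged from 12 gained and 1 lost to 18 and 6 peaks over 5 other settings. PARP1, PARP2, XRCC1 and APEX1 had 0 of either kind.

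Of 12 genes of DNA-PK and end joining, 9 had a gained (75%) and 6 a lost peak (50.0%), against 49.9% and 41.2% of all genes; XRCC4 had 3 of each, and TP53BP1, a regulator of repair choice, 2 gained and 0 lost. Of 19 genes of homologous recombination, 13 had a gained (68.4%) and 6 a lost peak (31.6%), and BLM, a helicase gene, held 1 gained and 3 lost. Of 18 damage checkpoint genes, 8 had gained (44.4%) and 6 had lost peaks (33.3%), near the shares of all genes, and PPM1D, a phosphatase gene that ends the response, had 0 and 2. The medians of gained peaks per gene in these 4 lists were 0 to 1, against 0 over all genes. The median lengths of the lists were 31.3 to 74.3 kb, against 24.2 kb over all genes. Per 100 kb the end joining genes held 1.10 gained and 0.627 lost peaks, against 1.20 and 0.926 over all genes. The single-strand break repair genes held 1.86 and 0.248, the recombination genes 1.38 and 0.794, and the checkpoint genes 0.736 and 0.654.

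Genes of the belinostat target and its complexes had calls in both directions. Of 11 histone deacetylase genes, 6 had a gained (54.5%) and 9 a lost peak (81.8%), against 49.9% and 41.2% of all genes; HDAC9 held 7 and 4, and HDAC7 held 0 and 2. Of 20 genes of deacetylase corepressor complexes, 18 had a gained (90%) and 15 a lost peak (75%), 36 and 33 peaks, with 2 and 4 in MTA3 and 1 and 4 in GATAD2B, both of the NuRD complex. Of 14 acetyltransferase and BET reader genes, 8 had gained (57.1%) and 7 had lost peaks (50.0%), near the shares of all genes. These 3 lists had median gene lengths of 38.6 to 68.6 kb, against 24.2 kb over all genes. Per 100 kb the histone deacetylase genes held 0.863 gained and 0.762 lost peaks, fewer than the 1.20 and 0.926 over all genes. The corepressor genes held 1.49 and 1.37, and the acetyltransferase and BET reader genes 1.18 and 1.26. EP300 and CREBBP, the paired acetyltransferase genes, had 0 gained and 3 lost, and 1 and 3, whereas KAT6A had 4 and 1.

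Receptor kinase and growth genes known from glioma split by gene. Of 17, 14 had a gained and 14 a lost peak (82.4% each, against 49.9% and 41.2% of all genes), 34 peaks each way. Their median length was 92.0 kb, and per 100 kb they held 0.956 gained and 0.956 lost peaks, against 1.20 and 0.926 over all genes. EGFR held 21 vehicle and 27 combination peaks, 8 gained and 2 lost (belinostat 13 and 1, AsiDNA 4 and 2), and NTRK3, a neurotrophin receptor gene, 7 and 2. MET, the hepatocyte growth factor receptor gene, held 21 vehicle and 14 combination peaks, 1 gained and 7 lost (belinostat 1 and 5, AsiDNA 3 and 2). ERBB4 held 2 gained and 7 lost.

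Of 22 cell cycle genes, 12 had gained (54.5%) and 10 had lost peaks (45.5%), near the 49.9% and 41.2% of all genes; CDK6 had 2 and 7 and E2F1 0 and 3, and CCND3 had 2 and 0. Of 18 p53 target genes, 10 had gained (55.6%) and 5 had lost peaks (27.8%), with SESN2 at 3 and 0 and ZMAT3 at 1 and 4. FAS had 0 gained and 2 lost peaks in its span plus 10 kb, although a strong gained peak lay farther off. Of 20 apoptosis genes, 13 had gained (65.0%) and 9 had lost peaks (45.0%), with CFLAR, a caspase-8 inhibitor gene, at 3 and 1, and APAF1 at 1 and 2. Of 24 interferon response genes, 11 had gained (45.8%) and 6 had lost peaks (25%), both below the shares of all genes. Their median length was 14.1 kb, against 24.2 kb over all genes. They held 1.499 gained and 0.699 lost peaks per 100 kb, against 1.20 and 0.926 over all genes. Per length, only their lost peaks were thus fewer than over all genes. RIGI, an RNA sensor gene, had 3 gained and 0 lost, and OAS2 had 0 and 2.

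Genes of glial and mesenchymal identity had 58 gained and 45 lost peaks over 26 genes, 18 with a gained (69.2%) and 15 with a lost peak (57.7%), against 49.9% and 41.2% of all genes. Their median length was 10.7 kb, against 24.2 kb over all genes, and per 100 kb they held 2.71 gained and 2.10 lost peaks. RUNX1 had 7 of each, TEAD1 6 and 7, STAT3 5 and 0, and YAP1, the Hippo pathway coactivator gene, 5 and 0. CD44 had 4 gained and 6 lost, and CEBPB 0 and 2. Of 29 genes of neuronal adhesion and synapses, 18 had a gained and 18 a lost peak (62.1% each). Their median length was 785 kb, and per 100 kb they held 0.350 gained and 0.290 lost peaks, fewer than the 1.20 and 0.926 over all genes. NRXN3 held 13 and 8, SHANK2 11 and 6, and SNAP25, a vesicle fusion gene, 7 and 1, whereas NLGN1, a postsynaptic adhesion gene, held 3 and 12.

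Of 1558 miRNA hairpins, 1.09% (17) were gained and 1.35% (21) lost, 7 and 9 of them by a whole peak. MIR9-2, a source of miR-9, which is known for its part in neural differentiation, lay in a vehicle peak of percentile 11.3, with no peak in the other 3 lists. MIR197 lay in a vehicle peak of percentile 6.43, again absent from the other 3. MIR591 overlapped a peak of percentile 57.7 in the combination and 60.2 in the belinostat list. MIR1179 lay in one of 26.0 and 39.7 in the same order, with no vehicle or AsiDNA peak at either hairpin. MIR4687 overlapped a vehicle peak of percentile 0.676 and an AsiDNA peak of 84.0. The gained hairpin MIRLET7A2 and the lost hairpin MIR92B were border cases of shared peaks.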

How the data were processed

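NicE-seq libraries were grouped by the treatment field of their labels (4 libraries a group, 1 deposited narrowPeak list per group). Per the submitters' processing notes, the authors used hg38 and MACS2, with Trim Galore 0.5.0, Picard, SAMtools, deepTools and Bowtie2. Not given in the sources used here are the control, the options, the pooling of libraries and the handling of reads with several positions. The deposited lists give, per peak, a score, a fold enrichment, −log10 p and −log10 q values and a summit offset. The lowest −log10 q was 1.31 in both lists.

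Overlaps, widths and percentiles of fold enrichment were computed in Python 3.11.15 with numpy 2.4.6 and pandas 2.3.3, and figures with matplotlib 3.10.9. Genes and 15811 starts came from RefSeq (GRCh38.p14); starts on chromosome 8 were not used here. A peak belonged to each gene whose span plus 10 kb it touched, so overlapping genes share peaks; exon and intron placement was not analysed here. The overlap step was tested on 20000 simulated regions (100% recovered) and on chromosome 21 (0 of 1774 peaks differed from a direct search).

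Named were the 10 strongest gained and lost peaks, the 10 genes with most of each, the 8 with the largest excess either way, the 8 strongest starts each way, the 5 extreme shared peaks each way, and the members of 14 gene lists (264 genes, all matched) with most calls; some members named by this rule are not reported here. Members and lists were chosen with earlier results of these data known. No test was run, since each group had 1 list; Wilson 95% intervals cover counting error only, and whether the 4 libraries came from separate cultures is not stated.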

Additional observations from a re-analysis of the deposited data

How the results depend on the processing

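Of 69 alternative values for the counts and shared-peak medians, 54 stayed within 1.5 times the reported count or within the 95% interval of the reported median. Counting a peak as present only at −log10 q of 5 or more, and as absent only where the other list had none, gave 14390 lost peaks and 171 lost starts. Gene counts grew with a 50 kb margin (15770 with a gained and 13817 with a lost peak) and over all gene types (20503 and 17191). With a summit required in the start window, 1204 starts were gained and 585 lost. The median width ratio was 0.995 at −log10 q of 5 or more and 0.992 for peaks of 250 bp or more. The median rank shift was 2.08 and 1.91 points under these settings, 0.417 with lists of equal length, 1.00 ranked by −log10 p, and 1.56 without windows that held no gene, a setting chosen after seeing the data. The splits by gene density, chromosome and gene list under other settings were also added after seeing the data. The gained share of all calls ran from 49.9% to 59.0%, against 54.1% as reported. The lowest value came from lists of equal length, which make the share near even by construction. The net count kept its sign in every one of the 16 genes, which were picked for extreme counts in these same lists. No paired analysis was possible because each group has 1 pooled list, and leaving out each library was not run for the same reason. Depth limits the calls to an unknown extent, since a region absent from a list may lie just under its threshold.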
